A study of Mus musculus with 6 samples.

Results

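A set of 41 interferon-stimulated antiviral genes was followed by bulk RNA-Seq in sorted hepatic CD4 T cells of mice. The genes were chosen by symbol, as genes known for antiviral activity or for induction by interferon, by a rule that used no measured value, although earlier results of these data were known when the set was drawn up. All 41 were among the 28430 gene symbols of the count table, and all 41 were abundant enough to be tested, together with 15694 genes in total. The mice had received a choline-deficient, high-fat diet, which induces metabolic dysfunction-associated steatohepatitis (MASH), and both groups had this diet. WT mice were compared with mice whose T cells lose floxed alleles of Nr4a1 and of Nr4a2 through Cd4-Cre (dKO). This Cre is driven by the Cd4 promoter and so acts from the thymus on, in CD8 T cells as well. Each group held 3 libraries, described by the study as independent biological replicates. The sex and age of the animals of each library are not given in the labels.

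Interferons are cytokines that cells release on sensing viral nucleic acid. Type I interferons bind the receptor chains Ifnar1 and Ifnar2, and signalling through the kinases Jak1 and Tyk2 then brings a complex that includes Stat2 and Irf9 to the interferon-stimulated response element (ISRE) in the promoters of responsive genes. Interferon gamma, made by T cells and NK cells, acts through Jak1 and Jak2 on genes that hold a gamma-activated site (GAS). The products degrade viral RNA, block translation, trap virions or sense further RNA, and T cells, like most cells, keep a basal level of many of these genes.

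The promoters of the members were searched for motifs, and those of the members on which the results turn are shown first. Promoter sequence was not read in the choice of genes. Genes known for induction by interferon were chosen, however, so a high ISRE share follows in part from that choice. RefSeq promoter windows (GRCm38.p6, 250 bases before and 50 bases after the start, positions counted from the start) were matched by symbol for 30 of the 41 members. The ISRE core, searched as GAAANNGAAA on both strands, was present in 16 of the 30 genes (53.3%) and in 3.99% of all 27025 genes with a window. The GAS, TTCNNNGAA, which reads the same on both strands and can overlap an ISRE, was present in 6 of the 30 (20%) and in 9.55% of all genes. The element bound by NR4A monomers, AAAGGTCA on either strand, was present in 0 of the 30 and in 1.70% of all genes. Capitals below mark the ISRE matches, which read TTTCNNTTTC where they lie on the opposite strand.

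Ifit1 (chr19:34640639-34640888, plus strand) had the largest increase among members and Slfn1 (chr11:83116570-83116819, plus strand) the largest decrease, so the 250 bases before their starts are given. Ifit1 held a pair of matches, at -104 to -95 and at -85 to -76, and Slfn1 held no match.
Ifit1: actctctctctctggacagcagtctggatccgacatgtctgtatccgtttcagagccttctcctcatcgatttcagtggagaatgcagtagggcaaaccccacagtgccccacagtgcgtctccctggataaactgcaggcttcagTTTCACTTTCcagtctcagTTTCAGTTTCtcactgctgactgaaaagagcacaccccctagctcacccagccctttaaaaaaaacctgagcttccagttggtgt
Slfn1: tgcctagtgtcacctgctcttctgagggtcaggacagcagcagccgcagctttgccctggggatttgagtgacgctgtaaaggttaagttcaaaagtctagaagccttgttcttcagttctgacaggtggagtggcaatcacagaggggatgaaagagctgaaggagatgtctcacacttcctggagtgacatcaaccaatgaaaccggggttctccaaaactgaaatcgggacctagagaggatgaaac

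Ifit3 (chr19:34583358-34583431, plus strand) and Ifit3b (chr19:34607754-34607827, plus strand) are shown because they lie near Ifit1 and their changes had the opposite sign. Their printed stretches are identical over 74 bases, and each holds the same 10-base matches as Ifit1, TTTCACTTTC and TTTCAGTTTC.
Ifit3: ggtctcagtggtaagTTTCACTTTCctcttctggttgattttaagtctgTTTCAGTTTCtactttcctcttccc
Ifit3b: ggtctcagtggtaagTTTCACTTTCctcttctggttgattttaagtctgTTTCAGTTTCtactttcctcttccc

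Isg15 (chr4:156200860-156200911, minus strand) held 3 overlapping matches. Oas1a (chr5:120907526-120907560, minus strand) and its near-identical neighbour Oas1g (chr5:120887614-120887646, minus strand) held the same pair. Ifih1 (chr2:62646206-62646233, minus strand), the other member that rose, held a single match, placed after the start at 33 to 42, and Slfn8 (chr11:83020834-83020873, minus strand) a single match on the opposite strand.
Isg15: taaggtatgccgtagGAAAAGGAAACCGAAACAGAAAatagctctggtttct
Oas1a: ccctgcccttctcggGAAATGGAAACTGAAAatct
Oas1g: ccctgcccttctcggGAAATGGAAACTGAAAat
Ifih1: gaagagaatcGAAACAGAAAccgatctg
Slfn8: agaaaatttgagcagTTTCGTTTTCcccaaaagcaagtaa

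The libraries held 5747744 to 11078184 counted reads, of which the members took 0.279% to 0.361%. Levels are normalised CPM, reads per 1000000 counted reads after scaling of the library sizes, given in the order replicate 1, 2 and 3. Each change is a log2 fold change ± SE, with dKO-labelled libraries set over WT-labelled ones, and its p comes from edgeR's quasi-likelihood test, adjusted over all 15694 tested genes. Neither targeted gene followed the labels. Nr4a1 had 329.5, 679 and 821 CPM in the WT libraries as labelled and 713, 1037 and 642 CPM in the dKO ones, while Nr4a2 was higher in the latter (log2 fold change 1.05 ± 0.21, edgeR adjusted p = 0.0308). Counts are given per gene symbol, so a transcript lacking the deleted part may still be counted, which was not tested. Every direction here is between libraries as labelled. Of 10 CD4 T cell markers, 7 were in the table, and these summed to 3460 to 4380 CPM. The libraries differed in sex-linked RNA. Xist stood at 1656, 133 and 97.1 CPM in WT and at 1899, 796 and 1914 CPM in dKO. Y-linked reads, summed over Ddx3y, Kdm5d, Uty and Eif2s3y, stood at 93.9, 513 and 589 CPM in WT and at 65.7, 467 and 80.6 CPM in dKO, so dKO 2 held both. Xist was high in WT 1 alone of the WT libraries and in every dKO library, so sex-linked RNA was not balanced between the groups. Among markers of other cells, the Treg list was higher for 5 of 6 genes (summed level 1080 to 1740 CPM in WT and 3330 to 4360 CPM in dKO) and both CD8 genes were higher (199 to 237 CPM and 296 to 338 CPM). In bulk RNA, fewer cells of a type and less RNA per cell cannot be told apart.

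The comparison of the groups asks how loss of both receptors in T cells affects this antiviral programme in the MASH liver. Of the 41 members, 2 rose (Ifit1 and Ifih1) and 1 fell (Slfn1), and the other 38 did not pass the test. The 3 called genes are 7.32% of the members, beside 3.31% of all tested genes, with 2.15% of all genes called higher and 1.17% called lower. Log2 fold changes were above 0 for 20 members and below 0 for 21, with a median of -0.00017, beside -0.0061 over all tested genes. The quartiles were -0.12 and 0.34 for the members and -0.20 and 0.20 for all genes. At an unadjusted p under 0.05 there were 9 members higher (Ifit1, Ifih1, Oas1a, Oasl1, Isg15, Ddx60, Parp12, Slfn8 and Ifi44) and 1 lower (Slfn1), beside 10.5% of all tested genes higher and 8.71% lower. DESeq2 called Ifit1, Ifih1 and Isg15 higher and Slfn1 lower, beside 3.67% of all genes with a DESeq2 adjusted p called higher and 1.81% lower. Where no gene of a family passed the test below, these lists name any that passed by either of these measures. They hold neither Mx gene, and none of Isg20, Rsad2, Cmpk2, Eif2ak2, Bst2, Ifi27, Ifi27l2a and Rtp4. For 9 members (21.95%) the libraries of the groups were fully separate, 7 higher and 2 lower in dKO, against 25.0% of all tested genes without overlap, so this share was close to the background. For 23 members the change was within 0.25 of 0, and for 18 the 95% interval lay within -0.5 to 0.5. These normal intervals run narrower than the test, so 18 may be too many. They leave out 0 for Ifit3, Mx1 and Isg20, whose edgeR unadjusted p was 0.0612, 0.0688 and 0.0631. Fits with 1 library left out rest on fewer samples, and only the fit without WT 1 kept all 3 calls. In these fits 0 members passed without dKO 1 or without dKO 2, 1 (Slfn1) without dKO 3 and 1 (Ifit1) without WT 3. Without WT 1 there were 2 higher and 3 lower, and without WT 2 1 higher (Isg20) and 1 lower (Slfn1). Over these fits the changes were 1.25 to 1.71 for Ifit1, 0.40 to 0.47 for Ifih1 and -0.65 to -0.49 for Slfn1.

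**Figure D1:**
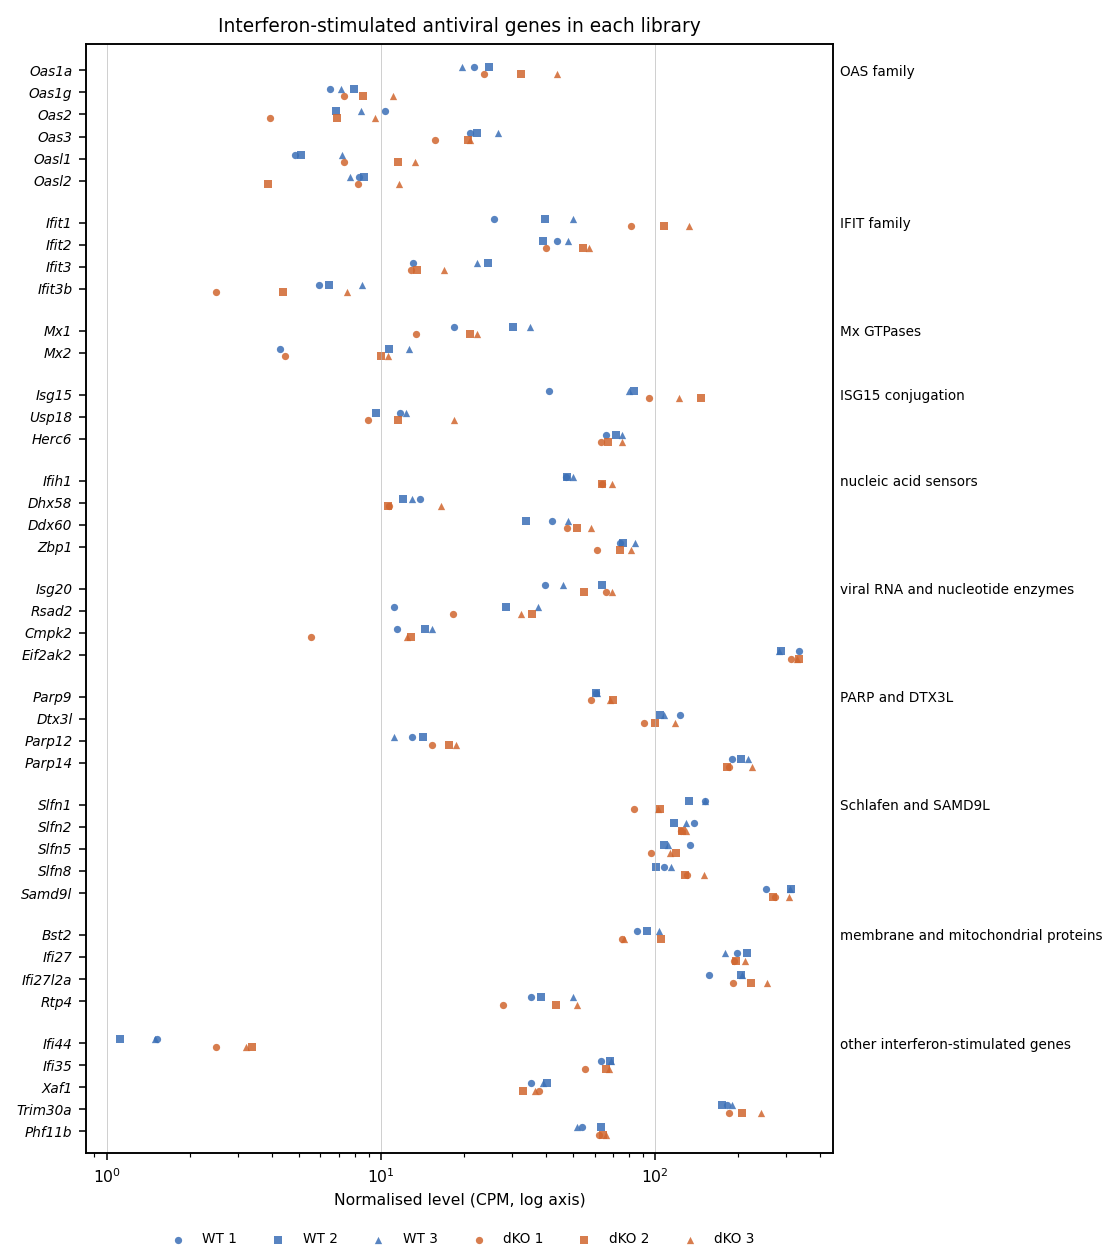
Normalised level (CPM, log axis) of each of the 41 members in each of the 6 libraries, grouped by role, with WT in blue and dKO in orange and 1 marker shape per replicate number. Ifit1 is separate between the groups (25.8 to 49.97 CPM against 81.3 to 133 CPM), while for most members the points of the groups are mixed.

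**Figure D2:**
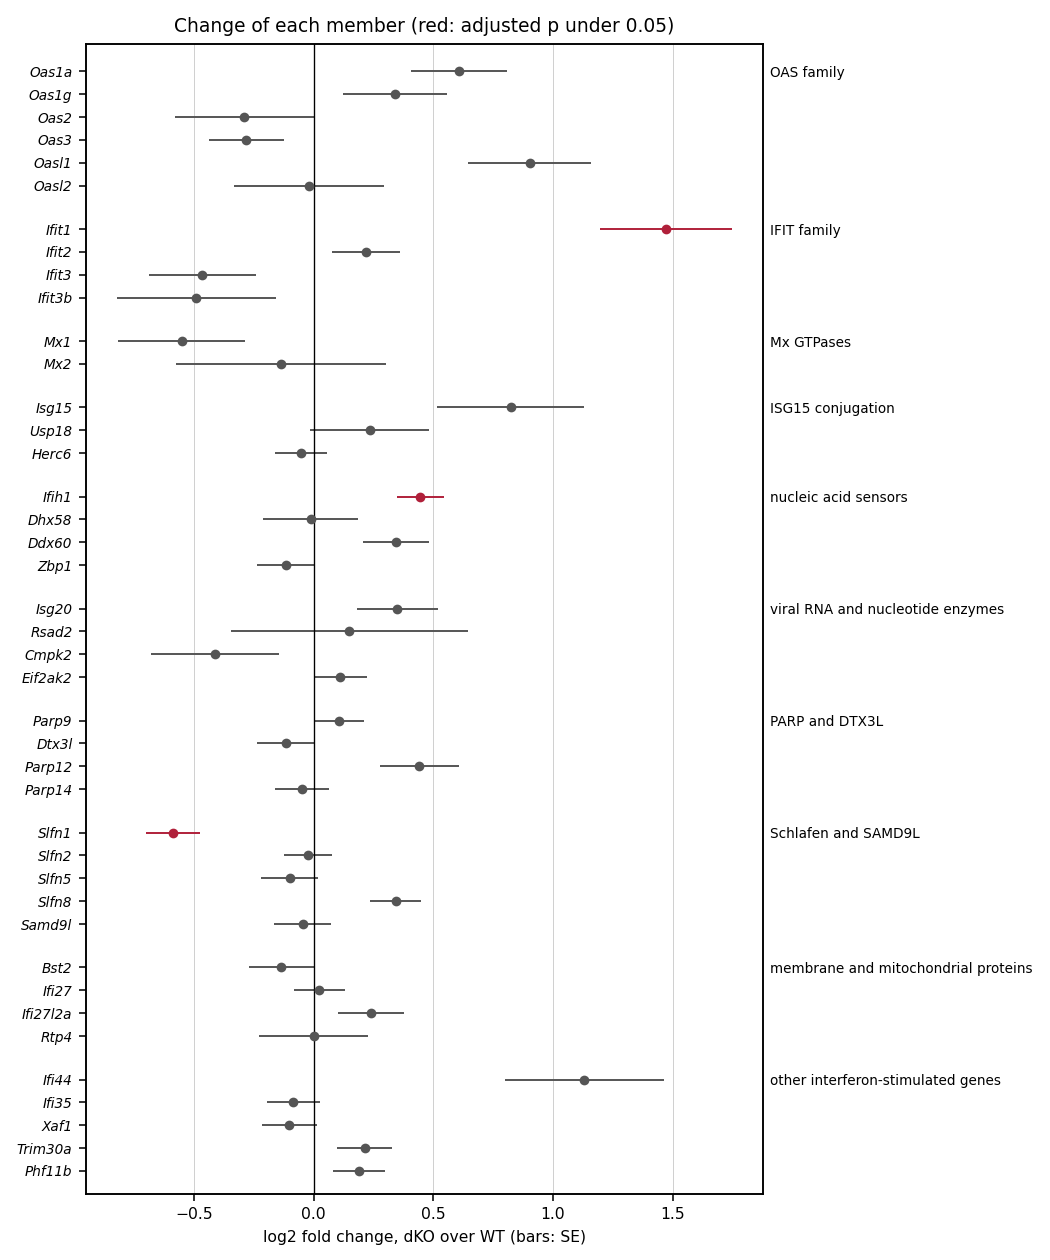
Log2 fold change of each member, dKO over WT, with bars of 1 SE and the members called at an adjusted p under 0.05 in red. The called genes are Ifit1 at 1.47, Ifih1 at 0.45 and Slfn1 at -0.59, and members of the same family lie on both sides of 0.

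The IFIT proteins bind viral RNA and hinder its translation, and Ifit1 recognises RNA whose cap lacks methylation. Ifit1 rose from 25.8, 39.5 and 49.97 CPM in WT to 81.3, 107 and 133 CPM in dKO. The lowest dKO library was above the highest WT library. Its mean was 38.4 ± 12.1 CPM and 107 ± 25.6 CPM (SD, n = 3), a log2 fold change of 1.47 ± 0.28 (edgeR adjusted p = 0.0472). The call was lost without WT 2, dKO 1, dKO 2 or dKO 3 (adjusted p = 0.157, 0.0521, 0.118 and 0.0853), at changes of 1.28 to 1.64, and also with no filter on low counts (0.117) or with the macrophage marker level as a covariate (0.157). The range of its adjusted p over all alternatives was 8.2e-09 to 0.893. The macrophage covariate averaged only Cd68 and Fcer1g, the 2 of 12 list markers that were tested. Both stood at low levels, and Fcer1g was itself called lower in dKO, so that covariate partly follows the groups.

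Ifit2, Ifit3 and Ifit3b, neighbours of Ifit1 on chromosome 19 that encode related RNA-binding proteins, did not pass the test. They are described because they lie near Ifit1, a choice made after their values were seen. Ifit3 had 13.1, 24.5 and 22.3 CPM in WT and 12.9, 13.5 and 16.9 CPM in dKO (-0.46 ± 0.22, edgeR adjusted p = 0.286). Ifit3b had 5.94, 6.45 and 8.52 CPM and 2.50, 4.39 and 7.52 CPM (-0.49 ± 0.33, 0.466), and Ifit2 a change of 0.22 ± 0.14 (0.440). For each of the 3 the libraries of WT and dKO overlapped. The ratio of Ifit1 to Ifit3 CPM was 1.97, 1.61 and 2.24 in WT and 6.32, 7.95 and 7.84 in dKO. This ratio was also chosen after the values were seen, so its lack of overlap follows in part from that choice. Ifit3 and Ifit3b share 51.2% and 45.0% of their 50-base transcript stretches with other genes, above all each other, so their separate counts are uncertain, while Ifit1 shares 7.13%, mainly with Ifit1bl2. Ifit1bl2 (0.58 ± 0.29, edgeR adjusted p = 0.308) and Ifit1bl1 (-0.44 ± 0.15, 0.141) did not pass the test, although the libraries of the groups were separate for Ifit1bl1.

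**Figure D3:**
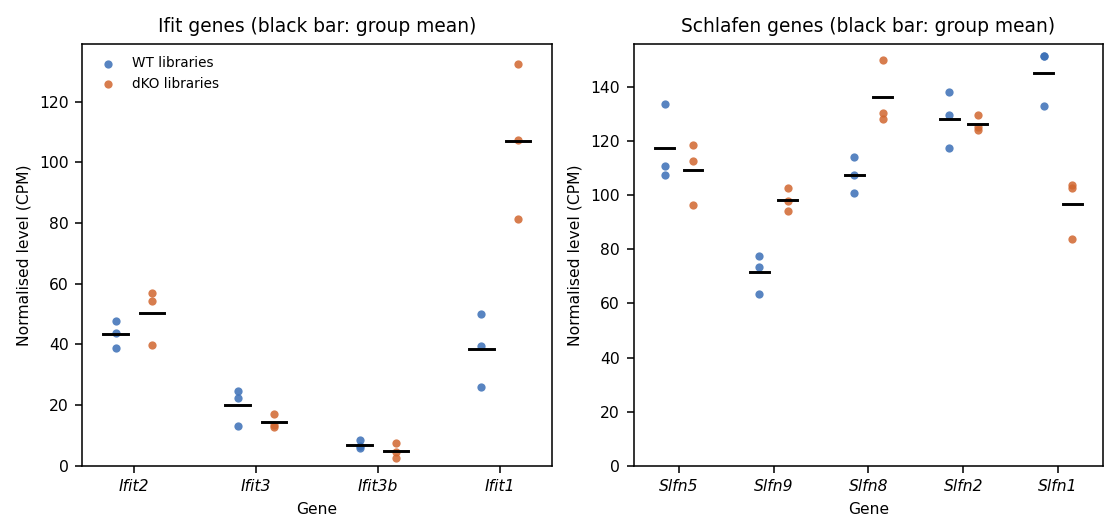
Normalised level (CPM) of the neighbouring Ifit genes on chromosome 19 and of Schlafen genes on chromosome 11 in each library, with WT in blue, dKO in orange and black bars at the group means. Ifit1 is higher in all 3 dKO libraries while Ifit3 overlaps, and the dKO libraries lie below WT for Slfn1 and above WT for Slfn8 and Slfn9.

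The OAS family makes the messenger 2'-5' oligoadenylate on meeting double-stranded RNA, which activates RNase L, although the OAS-like proteins include members without this activity. None of the 6 members (Oas1a, Oas1g, Oas2, Oas3, Oasl1 and Oasl2) passed the test, and their changes ran from -0.29 to 0.90. Oasl1, which in mice represses translation of Irf7 mRNA, had 4.83, 5.08 and 7.21 CPM in WT and 7.32, 11.5 and 13.3 CPM in dKO. The groups did not overlap, by a small margin between WT 3 and dKO 1 (0.90 ± 0.26, edgeR adjusted p = 0.0742). Oas3 had 21.1, 22.3 and 26.7 CPM in WT and 15.7, 20.8 and 21.1 CPM in dKO (-0.28 ± 0.16, 0.362), where the closest libraries of the groups were nearly level. Oas1a and Oas1g share 57.6% and 45.7% of their stretches with other genes, above all each other, and their separate levels are uncertain.

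Mx1 and Mx2 encode dynamin-like GTPases that block virus replication, and neither passed the test, with changes of -0.55 and -0.14. Without WT 1, Mx1 and Ifit3 were called lower (edgeR adjusted p = 0.0276 and 0.0296).

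Isg15 is a ubiquitin-like protein that is joined to other proteins, Usp18 removes it and also restrains the type I receptor, and Herc6 is its main ligase in mice. Isg15 had 40.9, 83.8 and 80.5 CPM in WT and 94.8, 147 and 122 CPM in dKO. All dKO libraries were above all WT libraries, with WT 1 well below the other 2. Its change of 0.82 ± 0.31 missed the threshold (edgeR adjusted p = 0.224), but DESeq2 called it (0.0097), and so did the fit with Xist as a covariate (1.51, 1.2e-04), a covariate chosen after seeing the data. Together with the replicate block, these were the only 3 of 17 alternatives that called it. With a library left out, 0 of 6 fits called it (edgeR adjusted p = 0.0629 to 0.403). Usp18 and Herc6 did not pass the test, at 0.23 and -0.05.

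Among sensors, Ifih1 (MDA5) detects long double-stranded RNA, Dhx58 (LGP2) modulates it, Ddx60 is a related helicase and Zbp1 binds Z-form nucleic acid and can start necroptosis. Ifih1 rose from 47.4, 47.5 and 49.9 CPM in WT to 63.8, 64.0 and 69.3 CPM in dKO. Within each group its levels lay close together, and the groups did not overlap. The means were 48.2 ± 1.42 CPM and 65.7 ± 3.15 CPM (SD, n = 3), a log2 fold change of 0.45 ± 0.10 (edgeR adjusted p = 0.0296). The call stood without WT 1 (0.0412) and was lost without WT 2, WT 3, dKO 1, dKO 2 or dKO 3 (0.0658, 0.0697, 0.0999, 0.091 and 0.095) at changes of 0.40 to 0.47, and also with limma on log2(CPM + 1) or log2(CPM + 0.1) (0.0573 and 0.0625), with the replicate block (0.0539) and with the macrophage, Treg or Xist level as a covariate (0.178, 0.825 and 0.084), so 6 of 17 alternatives called it. Across these alternatives its adjusted p ranged from 0.0131 to 0.825. Dhx58, Ddx60 and Zbp1 did not pass the test, with changes of -0.12 to 0.34.

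Of the enzymes that act on viral RNA or nucleotides, Isg20 is an RNA exonuclease, Rsad2 (viperin) makes a chain-terminating nucleotide, Cmpk2 is its neighbour on chromosome 12 and a nucleotide kinase, and Eif2ak2 (PKR) stops translation on meeting double-stranded RNA. None of the 4 passed the test, with changes of -0.41 to 0.35. Eif2ak2, which ranked 7 of the members in WT and 6 in dKO per kilobase of exon, had 334, 287 and 283 CPM in WT and 313, 334 and 329 CPM in dKO. The groups overlapped (0.11 ± 0.11, edgeR adjusted p = 0.642).

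Parp9, Parp12 and Parp14 are ADP-ribosyltransferases or relatives of them, and Dtx3l is a ubiquitin ligase that pairs with Parp9. None of the 4 passed the test. Parp12 had 13.0, 14.3 and 11.14 CPM in WT and 15.4, 17.7 and 18.7 CPM in dKO (0.44 ± 0.17, edgeR adjusted p = 0.161), without overlap. Parp14 had 191, 206 and 217 CPM in WT and 185, 183 and 225 CPM in dKO (-0.05 ± 0.11, 0.867), with the dKO range wider than that of WT on both sides. Parp9 and Dtx3l, in a row with Parp14 on chromosome 16, lay at 0.11 and -0.12.

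Schlafen proteins are interferon-inducible proteins of lymphoid and myeloid cells, and Slfn1, known in mice for holding back T cell growth when overexpressed, was the member that fell. It had 151, 133 and 151 CPM in WT and 83.6, 104 and 102 CPM in dKO. The highest dKO library was below the lowest WT library. The means were 145 ± 10.6 CPM and 96.6 ± 11.2 CPM (SD, n = 3), a log2 fold change of -0.59 ± 0.11 (edgeR adjusted p = 0.0164). The call was lost without WT 3, dKO 1 or dKO 2 (0.0602, 0.0999 and 0.0552) at changes of -0.64 to -0.49, and its adjusted p over all alternatives ranged from 7.7e-05 to 0.988.

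Slfn8, on the same stretch of chromosome 11 as Slfn1, did not pass the test, and its change had the opposite sign. It had 107, 101 and 114 CPM in WT and 130.4, 128 and 150.0 CPM in dKO, without overlap (0.34 ± 0.11, edgeR adjusted p = 0.0950). Its ratio to Slfn1 CPM was 0.709, 0.759 and 0.753 in WT and 1.56, 1.24 and 1.46 in dKO, a ratio chosen after the values were seen. Slfn8 shares 14.6% of its stretches with other genes, above all Slfn10-ps and Slfn9, whose levels were also higher (0.52 ± 0.13 and 0.46 ± 0.11, edgeR adjusted p = 0.0424 and 0.0374), so reads may be split among them. Slfn2, which adjoins Slfn1, and Slfn5 did not pass the test, at -0.02 ± 0.10 and -0.10 ± 0.12. Samd9l, which limits virus growth and cell growth, had 252, 312 and 311 CPM in WT and 272, 267 and 308 CPM in dKO (-0.04 ± 0.12, 0.884), with all dKO levels inside the WT range.

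Bst2 (tetherin) holds virions at the cell surface, Rtp4 is known as an interferon-induced Golgi-linked chaperone, and Ifi27 and Ifi27l2a encode small membrane proteins, the former found at mitochondria or the nuclear envelope. None of the 4 passed the test, with changes of -0.13 to 0.24. Ifi27l2a had 157, 205 and 207 CPM in WT and 192, 224 and 256 CPM in dKO (0.24 ± 0.14, edgeR adjusted p = 0.379). Ifi27, its neighbour, had 198, 216 and 179.9 CPM and 193, 198 and 213 CPM (0.02 ± 0.11, 0.937). The libraries of the groups overlapped for both genes.

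The other members were Ifi44, Ifi35, Xaf1, Trim30a and Phf11b, and none of the 5 passed the test. Ifi44, an antiviral protein, was the least abundant member, with 11, 9 and 16 reads in WT and 14, 20 and 29 reads in dKO, or 1.52, 1.12 and 1.497 CPM against 2.50, 3.37 and 3.21 CPM. The groups did not overlap (1.13 ± 0.33, edgeR adjusted p = 0.0815), but the precision rests on few reads. Trim30a, a restrainer of inflammatory signals, had 182, 175 and 191 CPM in WT and 186, 207 and 242 CPM in dKO (0.21 ± 0.12, 0.342), with dKO 1 inside the WT range. Phf11b shares 47.0% of its stretches with other genes, above all Phf11a, and its count is uncertain.

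Levels of different genes were compared per kilobase of exon (GENCODE vM21, GRCm38), since CPM grows with transcript length. On this scale Ifi27l2a was highest in both groups, at 410 ± 61.3 and 484 ± 69.4 CPM per kilobase (SD, n = 3), and Ifi44 lowest, at 0.225 ± 0.037 and 0.494 ± 0.076. Ifi27, Bst2 and Isg15 followed Ifi27l2a in WT, at 135 ± 12.4, 104 ± 9.79 and 90.4 ± 31.6 CPM per kilobase, and the spread of Isg15 covered that of Bst2. In dKO, Isg15 was at 161 ± 34.7, Ifi27 at 137 ± 7.18 and Bst2 at 95 ± 18.6. Ifit1 moved from rank 19 of 41 in WT to rank 11 in dKO.

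The members also varied between libraries of 1 group. For 28 of the 41 members (68.3%), beside 73.7% of all tested genes, the fold between the highest and lowest WT library was larger than that between the group means. Across the dKO libraries, dKO 1 was the lowest for 34 members (82.9%, beside 33.9% of all tested genes) and dKO 3 the highest for 31 (75.6%, beside 31.6%), and dKO 3 was the lowest for 0. Across WT, WT 1 was the lowest for 22 members (53.7%, beside 36.4% of all tested genes) and WT 3 the highest for 22 (53.7%, beside 30.3%). Each member's deviation from its own mean over the 6 libraries had a median of -0.09, -0.01 and 0.03 in WT and -0.12, 0.08 and 0.30 in dKO, on the log2(CPM + 1) scale, and dKO 3 was above the mean for 38 of 41. WT 1 was above the mean for 10 of 41 and dKO 1 for 12 of 41. The members thus stood mostly low in dKO 1 and WT 1 and mostly high in dKO 3. All of these libraries had a high Xist level and few Y-linked reads (65.7 CPM in dKO 1, 93.9 CPM in WT 1 and 80.6 CPM in dKO 3).

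**Figure D4:**
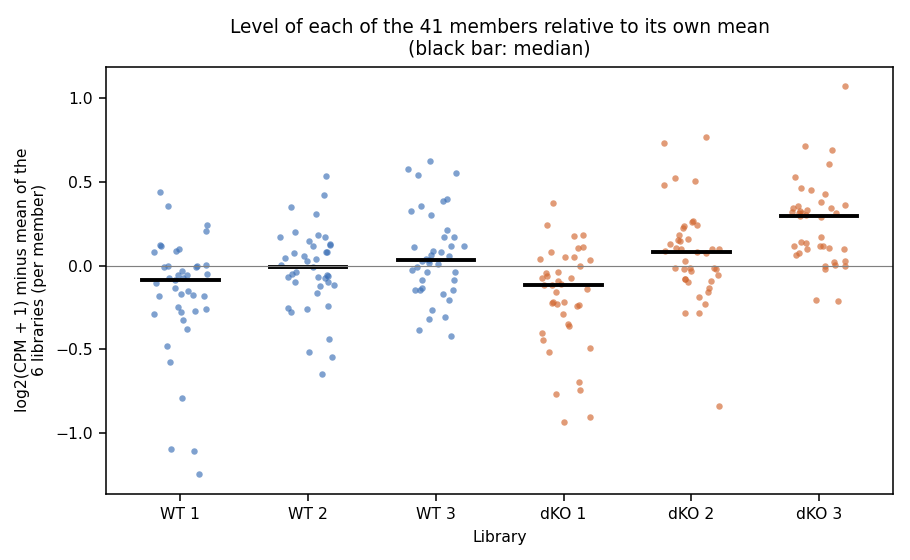
Deviation of each of the 41 members from its own mean over the 6 libraries, on the log2(CPM + 1) scale, by library, with black bars at the medians. The points of dKO 3 sit mostly above 0 (median 0.30) and those of dKO 1 and WT 1 mostly below (medians -0.12 and -0.09), with WT 2, WT 3 and dKO 2 between.

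The upstream pathway was read from lists of other genes. Of the interferon ligands, 5 of 21 symbols were in the table and only Ifng, encoding interferon gamma, was tested: 142, 440 and 501 CPM in WT and 110, 147 and 185 CPM in dKO, with WT 1 among the dKO levels (-1.29 ± 0.55, edgeR adjusted p = 0.308). Without WT 1, Ifng was called lower (-1.67, edgeR adjusted p = 0.00196), and without any other library it was not (0.386 to 0.558). Of 10 tested receptors and transducers, 1 rose and 0 fell, as by DESeq2, with 2 higher and 1 lower at an unadjusted p under 0.05. Jak2, a kinase of the interferon gamma receptor, rose from 230, 267 and 237 CPM to 466, 378 and 311 CPM (log2 fold change 0.65 ± 0.14, edgeR adjusted p = 0.0286), and the groups did not overlap. Neither Stat2 (0.16) nor Irf9 (0.04), parts of the ISRE-binding complex, passed the test, nor did Ifnar1 (0.40), Ifnar2 (-0.34) or Ifngr1 (0.47). With WT 3, dKO 1 or dKO 2 left out, Jak2 no longer passed (edgeR adjusted p = 0.0926, 0.143 and 0.103, respectively). Of 7 limiters of the signal, such as the Socs genes, and 13 sensors and adaptors, including Irf7, the factor that amplifies type I interferon (0.03), 0 were called by edgeR and 0 by DESeq2. At an unadjusted p under 0.05 there were 0 limiters, and among the sensors and adaptors 2 higher and 1 lower. Over all tested genes, 2.15% were called higher and 1.17% lower by edgeR, and 10.5% and 8.71% at that unadjusted threshold. By DESeq2 the shares were 3.67% and 1.81%.

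Of 49 tested further interferon-induced genes, 7 rose and 0 fell, with a median log2 fold change of -0.02, beside 2.15% of all tested genes called higher and 1.17% lower. At an unadjusted p under 0.05 there were 11 higher and 5 lower, beside 10.5% and 8.71% of all tested genes. DESeq2 called 6 higher and 0 lower, beside 3.67% and 1.81% of all genes with a DESeq2 adjusted p. The guanylate-binding proteins Gbp2, Gbp3, Gbp5 and Gbp7, GTPases that attack vacuoles of intracellular microbes, rose by 0.41 ± 0.10, 1.32 ± 0.14, 0.94 ± 0.12 and 0.64 ± 0.11 (edgeR adjusted p = 0.043, 0.00061, 0.00141 and 0.00912). Gbp3 had 36.9, 51.8 and 49.2 CPM in WT and 131, 108 and 107 CPM in dKO. Every dKO library was above the highest WT library. Iigp1, a GTPase of the same defence, rose by 0.96 ± 0.13 (0.00185), Ube2l6, the enzyme that conjugates Isg15, by 0.67 ± 0.16 (0.0392) and Slfn9 by 0.46 ± 0.11 (0.0374). Gbp3, Gbp5 and Iigp1 kept their calls with any single library left out. Gbp7 lost its call without dKO 1 (0.0644), Ube2l6 without WT 3 or any dKO library (0.0679 to 0.166), Slfn9 without any library but WT 2 (0.0605 to 0.135), and Gbp2 without any single library (0.061 to 0.159). The 7 calls became 4 without WT 3, 3 without dKO 1, 4 without dKO 2 and 4 without dKO 3.

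**Figure D5:**
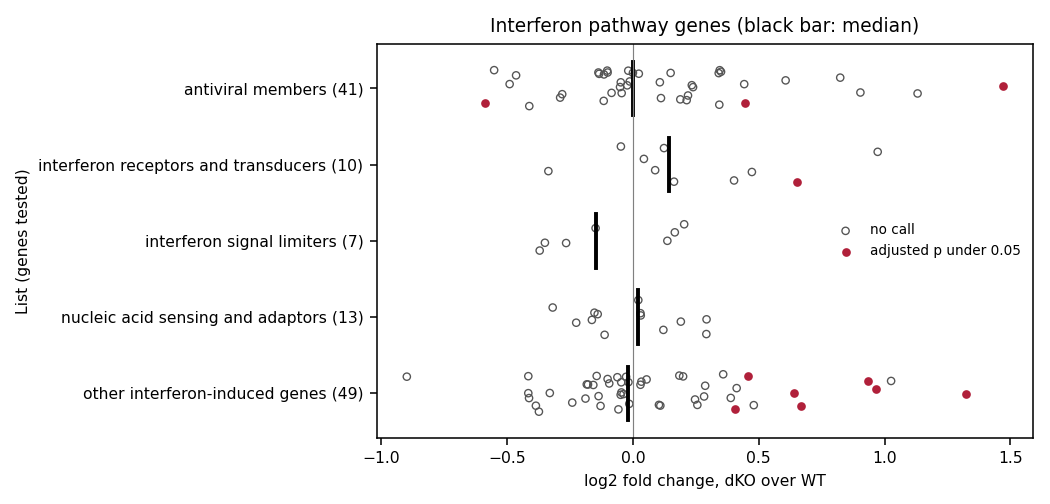
Log2 fold change, dKO over WT, of the antiviral members and of 4 lists of other interferon pathway genes, with 1 point per tested gene, called genes filled in red and black bars at the medians. The medians lie between -0.15 and 0.14, and the called genes of the last list are all on the right.

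Markers of other cells that can respond to or make interferon were set beside these results. Of 12 macrophage and monocyte markers, 5 (Adgre1, C1qa, C1qb, Vsig4 and Marco) were at 0 in all libraries, and the list summed to 4.0 to 11 CPM in WT and 3.54 to 7.5 CPM in dKO, with Fcer1g lower (-2.72 ± 0.53, edgeR adjusted p = 0.0186). The 7 plasmacytoid dendritic cell markers summed to 61.9 to 88.1 CPM and 80.2 to 85.2 CPM, with Ccr9, which T cells also express, higher (1.18 ± 0.20, edgeR adjusted p = 0.00912). The other 4 tested did not pass: Siglech (-1.71), Spib (-1.60) and Tcf4 (-0.33) had changes below 0, with the libraries of the groups separate for Spib and Tcf4, and Pacsin1 (0.41) above 0. The hepatocyte list summed to 6.76 to 14.2 CPM and 20.2 to 30.4 CPM, mostly Trf, which did not pass (1.45, edgeR adjusted p = 0.0675), and without Trf to 2.62 to 5.08 CPM and 2.5 to 5.64 CPM. With the Treg marker level as a covariate, Ifit1 had a change of 1.15, Ifih1 of 0.49 and Slfn1 of 0.04, with adjusted p of 0.893, 0.825 and 0.988. That level nearly follows the groups, so the 2 cannot be told apart in these libraries.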

How the data were processed

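RNA from sorted hepatic CD4 T cells was sequenced single-end from NEBNext Ultra II FS libraries. The submitters' processing notes name cutadapt and Bowtie2 and the genome as both mm10 and GRCm39; the counting tool, versions, annotation and strand setting were not given in the sources used here. Reads of overlapping or antisense genes may therefore be shared. The authors deposited raw counts per gene symbol, which were tested, and a normalised table called TPM whose values are CPM of the same counts (used in alternatives only). A mapping table was not used, and 0 columns of values lacked a sample.

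Genes were kept by filterByExpr (minimum count 10, minimum total count 15), which left 15694 of 28430, scaled by TMM (factors 0.964 to 1.04) and compared with edgeR 4.0.16 (quasi-likelihood F-test, robust, group as the sole term) under R 4.3.3, with Benjamini-Hochberg adjustment and a threshold of 0.05. The SE is the size of the log2 fold change over the square root of F. The 95% intervals are normal, so they run narrower than the quasi-likelihood test. The biological coefficient of variation was 14.5%. The p-values reflect only the spread among these 6 libraries. No 2 libraries of a group were alike within counting error (chi-square per degree of freedom 6.37 to 36.9). An exact permutation test of 3 against 3 cannot go below 0.1 and was not used. The procedure was tested on simulated data, drawn with a shared dispersion for all genes. The simulation held no sex-linked or library-wide difference of the kind seen here, so it does not cover their effect on the calls.

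The members and lists were chosen with earlier results of these data known. Named in full are members with an adjusted p under 0.05, up to 10 others with the largest change among those whose groups did not overlap, of which 6 existed, and the 6 with the highest mean CPM. Of the other lists, the called genes and Stat2, Irf9, Irf7, Ifnar1, Ifnar2, Ifngr1 and Ifng are named; the lists leave out an item that is not reported here. Shared sequence was counted as 50-base stretches of GENCODE vM21 transcripts found in transcripts of other genes, on either strand. Alternatives used RLE size factors, other filters, DESeq2 1.42.0, limma 3.58.1 (voom, and log2 of CPM plus 1 or 0.1), a replicate block, each library left out, and marker levels as covariates.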

Additional observations from a re-analysis of the deposited data

How the results depend on the processing

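Ifit1, Ifih1 and Slfn1 were the members called under RLE size factors, a mean CPM filter and limma-voom too, and DESeq2 added Isg15 (3 higher and 1 lower). With no filter 3 were higher and 1 lower, but Ifit1 was lost (edgeR adjusted p = 0.117) and Oas1a (0.00488) and Oasl1 (0.00572) were gained. With limma on log2(CPM + 1) or log2(CPM + 0.1), 1 member was higher. With the macrophage marker level as a covariate, which rests on 2 low markers and partly follows the groups, 0 were higher. With the Treg marker level 0 were higher and 0 lower, with a median change of 0.23. Leaving out each library gave 0 to 2 higher, 0 to 3 lower and a median of the members of -0.066 to 0.14. The 7 further interferon-induced genes called higher became 4 with limma on log2(CPM + 0.1), 0 with the Treg covariate, 11 with the Xist covariate and 3 to 6 with a library left out, and the 0 called lower became 4 with no filter and 0 to 1 with a library left out. Xist as a covariate, chosen after seeing the data, called 3 members higher (Ifit1, Isg15 and Rsad2) and 1 lower. Fits with 1 library left out rest on fewer samples; the cause of the other changes was not tested.

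No change that turned sign passed the test in that alternative, and of those called in the main comparison only Slfn1, Jak2, Ube2l6 and Slfn9 turned, all with the Treg covariate. With a library left out, changes ran from -0.28 to 0.10 for Dhx58, -0.20 to 0.53 for Rsad2, -0.083 to 0.025 for Slfn2, -0.070 to 0.16 for Irf9, -0.10 to 0.10 for Irf7, -0.45 to 0.29 for Oasl2, -0.15 to 0.0062 for Samd9l, -0.46 to 0.17 for Mx2, -0.041 to 0.090 for Ifi27, -0.22 to 0.21 for Rtp4, -0.14 to 0.0049 for Herc6, -0.15 to 0.00065 for Ifi35, -0.16 to 0.0061 for Parp14, -0.14 to 0.43 for Usp18 and -0.021 to 0.29 for Stat2. With the macrophage covariate the sign turned for Ifit3 (0.15), Mx2 (0.80), Usp18 (-0.14), Herc6 (0.0060), Eif2ak2 (-0.079), Samd9l (0.15), Bst2 (0.013), Ifi27 (-0.0051), Rtp4 (0.031), Xaf1 (0.043) and Ifng (0.088). With the Treg covariate it turned for Oas2 (1.72), Ifit3b (0.23), Isg15 (-0.13), Dhx58 (0.65), Zbp1 (0.18), Isg20 (-0.82), Rsad2 (-0.87), Cmpk2 (0.11), Dtx3l (0.59), Slfn1 (0.041), Slfn2 (0.38), Slfn5 (0.77), Ifi27 (-0.015), Ifi27l2a (-0.036), Rtp4 (0.55), Ifi35 (0.049), Phf11b (-0.052), Jak2 (-0.19), Ube2l6 (-0.40), Slfn9 (-0.0078), Irf7 (-0.38), Ifnar1 (-0.21) and Ifngr1 (-0.86). With the Xist covariate it turned for Ifit3 (0.022), Mx1 (0.0103), Mx2 (0.88), Herc6 (0.033), Eif2ak2 (-0.00085), Parp14 (0.011), Samd9l (0.11), Bst2 (0.060) and Rtp4 (0.23).

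The replicate numbers did not pair the libraries: deviations of same-numbered libraries correlated at 0.058, 0.026 and -0.086, and not every library correlated best with its own number. With the replicate block, 2 members were higher (Ifit1 and Isg15, the latter at an adjusted p of 0.0060) and 1 lower, and the median was -0.02. Depth limits Ifi44, with 9 to 29 reads a library.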
